A study of Saccharomyces cerevisiae with 4 samples.

Results

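The wide open-chromatin regions of wild-type budding yeast were the 460 regions in which a single peak of a WT library spanned 800 bp or more. They were built from 752 such peaks, merged where they shared at least 1 bp, and made up 460 of the 2641 merged WT regions. All 4 libraries together held 3469 merged regions. The regions were chosen by their WT widths, so those widths are a description and were not tested. The assay was ATAC-seq, which uses the Tn5 transposase to cut and tag DNA that nucleosomes do not shield. The cells were Saccharomyces cerevisiae of the laboratory strain BY4741, grown at 30 °C to mid-logarithmic phase. There were 2 libraries from swc4Δ cells, which lack SWC4, and 2 from WT cells, whose genotype label names no mutation. Whether the replicates of a genotype were grown as separate cultures is not stated in the labels, and the spread between them may be purely technical.

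In yeast, most promoters hold a short nucleosome-depleted stretch just upstream of the transcription start, flanked by positioned nucleosomes. Openness that extends over a gene body is known chiefly from heavily transcribed genes, where the passing polymerase displaces nucleosomes. Swc4 is a subunit shared by SWR1, the remodeller that exchanges histone H2A for the variant Htz1 beside promoters, and NuA4, a histone acetyltransferase.

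In total, 2826 and 2368 peaks were listed for the swc4Δ libraries, against 2354 and 2115 in the WT libraries. The background depth estimated from the step between the authors' folds was 24.4 and 25.5 in the swc4Δ libraries, against 22.6 and 24.0 in the WT libraries. The estimate rests on an assumed form of the fold, since the peak caller is not given, and its unit is not known. SWC4 had 0 peaks over its coding sequence or promoter in each library, so these lists do not test the deletion. A peak's fold is the authors' own enrichment over that background, and it was used only to describe and rank regions. A wider peak was usually also a stronger one: across the peaks of a list, width and fold had a Spearman correlation of 0.644 and 0.641 in the swc4Δ libraries, and of 0.630 and 0.602 in the WT libraries. Peaks of 1 list share a library and a threshold, so this is a description, and the part of peak strength in the widths was not tested.

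The wide regions varied in length. Their median width was 1125 bp, with a range of 801 to 4574 bp, and 52 of them spanned 2000 bp or more. They covered 604 kb, which was 5.01% of the genome length used here. A single library did not settle which regions were wide: 278 of the 460 (60.4%) reached 800 bp in both WT libraries, 132 in WT replicate 1 alone and 50 in WT replicate 2 alone. In 5 of the regions wide in 1 WT library, the other WT library had no peak. The WT lists held 160 peaks of 800 to 899 bp and 215 of 700 to 799 bp, so the threshold cut through a continuous range. Just inside it lay the start of CCR4, the deadenylase subunit of the CCR4-NOT complex, with a WT peak of 801 bp, and NIT3, also with 801 bp. The region between ASF2 and SEC31, a COPII coat subunit, followed with 802 bp. Just outside lay WT peaks of 799 bp at OM14 and COQ21, of 797 bp at CPP1 and MNN2, and of 797 bp at EPL1 and BUD27. Epl1 is itself a NuA4 subunit.

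Most wide regions took in the start of at least 1 gene. A start codon lay inside 337 of the 460 regions (73.3%), against 679 of the 2181 WT regions with no wide peak (31.1%), whose median width was 374 bp. Per kb of region the numbers were close, with 0.874 start codons per kb in wide regions, 0.827 per kb in the other WT regions and 0.497 per kb over the genome. The wide regions held 1 start codon in 193 cases, 2 in 105, 3 in 34, 4 in 2 and 5 in 3, and none in 123. In 105 regions the start codons included a divergent pair, that is, 2 neighbouring genes transcribed away from each other. A promoter, taken as the 500 bp upstream of a start codon, was touched by 434 wide regions (94.3%), against 1576 of the 2181 others (72.3%). In all, wide regions touched 848 of 6002 protein-coding promoters (14.1%).

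The wide regions reached further in both directions from the start codon, and often to the far end of the gene. Among the 193 wide regions with 1 start codon, the median stretch upstream was 687 bp and the median stretch into the gene 374 bp, which was 39.7% of the gene's length. In 59 of them (30.6%) the region ran past the gene's end. Among the 612 other WT regions with 1 start codon, the medians were 292 bp upstream and 112 bp into the gene, or 9.85% of its length, and 30 (4.90%) ran past the end. Wide regions thus held 48.3% of their length inside coding genes, against 38.2% in the other WT regions and 72.9% over the genome. A whole coding gene lay inside 158 wide regions, 185 genes in all. Since width chose these regions, their reach follows in part from the choice.

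The widest single WT peak lay on chromosome XI, 162832 to 166608 (sacCer3), over the starts of GPM1, NNR2 and MCR1. GPM1 encodes the glycolytic phosphoglycerate mutase, NNR2 a repair enzyme for hydrated NAD(P)H, and MCR1 a mitochondrial NADH-cytochrome b5 reductase. Its widest peak spanned 5018 and 4133 bp in the swc4Δ libraries, against 3777 and 3340 bp in the WT libraries. The groups did not overlap, with both swc4Δ libraries wider.

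On chromosome III, 49857 to 53635, a region over the starts of PDI1, YCL042W, GLK1 and GID7 had peaks of 3257 and 2627 bp in the swc4Δ libraries, against 3126 and 3292 bp in the WT libraries. PDI1 encodes the disulfide isomerase of the endoplasmic reticulum and GLK1 the glucokinase. Here the groups overlapped in width. TRX1, a cytosolic thioredoxin, and PDC1, the main pyruvate decarboxylase, shared a region on chromosome XII, 231993 to 235030. It had peaks of 3318 and 1409 bp in the swc4Δ libraries, against 3022 and 1101 bp in the WT libraries, so that replicates differed more than genotypes.

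Other regions of this size were narrower in both swc4Δ libraries. A region on chromosome X, 621404 to 625187, took in the starts of SOD1, the copper-zinc superoxide dismutase, ADO1, the adenosine kinase, and ECM27. Its widest peak was 1906 and 1756 bp in the swc4Δ libraries, against 3553 and 3491 bp in the WT libraries. On chromosome VII, 912825 to 916922, a region over TRX2, a cytosolic thioredoxin, YGR210C and ZPR1 had peaks of 2718 and 1466 bp in the swc4Δ libraries, against 2786 and 3588 bp in the WT libraries. The groups were separate in each region, by a small margin at TRX2.

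The last of the widest 10 were on chromosomes X, XIII and XV. ILV3, which encodes a dihydroxyacid dehydratase of branched-chain amino acid synthesis, lay with ESS1 and TES1 in a region of overlapping groups, with 2428 and 1267 bp in the swc4Δ libraries against 3281 and 2323 bp in the WT libraries. TSL1, a trehalose synthase subunit, lay with CUE4 and YML100W-A in a region that was wider in both swc4Δ libraries, with 4505 and 3074 bp against 2593 and 2939 bp in the WT libraries. HPF1, a cell wall mannoprotein, had peaks of 2290 and 2310 bp in the swc4Δ libraries, against 920 and 3110 bp in the WT libraries. The 2 WT libraries thus disagreed on whether HPF1 was among the widest regions or close to the threshold.

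**Figure D1:**
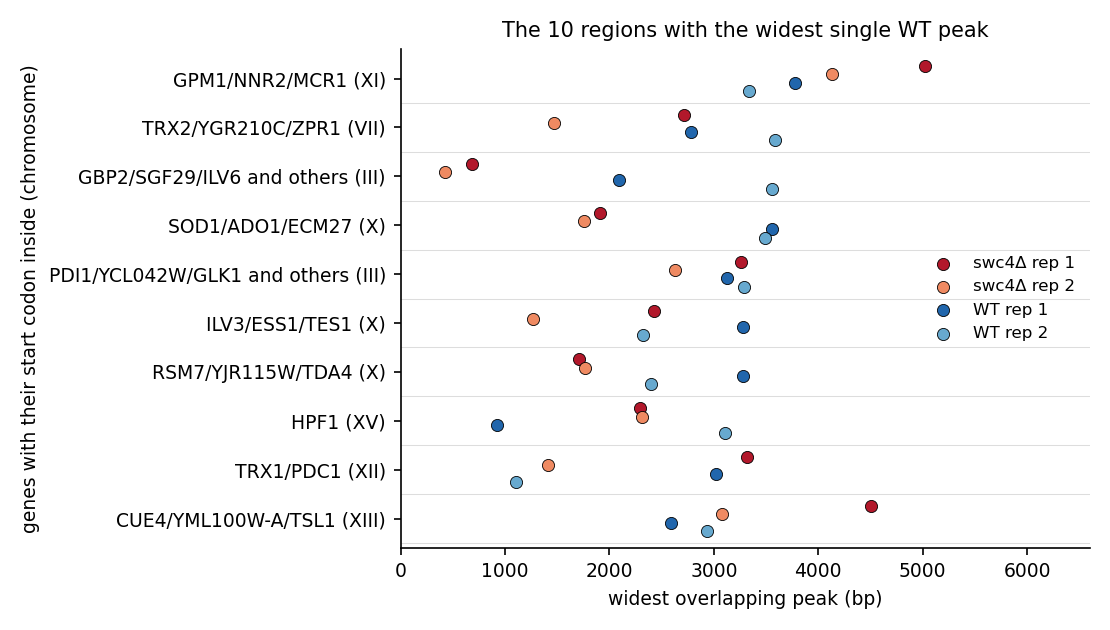
Width in bp of the widest overlapping peak in each of the 4 libraries (points) for the 10 regions with the widest single WT peak, named by the genes that start inside them. Both swc4Δ points lie right of both WT points at GPM1 and TSL1 and left of them at the TRX2, ILV6, SOD1 and RSM7 regions.

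Among regions with several start codons, the region on chromosome VI, 224383 to 227169, held the starts of QCR6, PHO4, YFR035C, YFR035W-A and CDC26 and a tRNA gene, YNCF0014C. PHO4 encodes the activator of the phosphate starvation genes and CDC26 a subunit of the anaphase-promoting complex. Its widest peak was 2631 and 2342 bp in the swc4Δ libraries, against 2364 and 2787 bp in the WT libraries, so the groups overlapped. The other regions with 5 start codons were the ILV6 region on chromosome III and the PRY3 to NET1 region on chromosome X. The region last named, 293695 to 295393, had peaks of 1293 and 1439 bp in the swc4Δ libraries, against 1631 and 1276 bp in the WT libraries. NET1 encodes a nucleolar protein that anchors the mitotic exit phosphatase.

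A smaller set of wide regions held no start codon. Of these 123 regions, 97 touched a promoter and 26 did not. One of them lay within the body of PMA1, the plasma membrane proton pump, on chromosome VII, 479985 to 482117. Its widest peak was 818 and 1722 bp in the swc4Δ libraries, against 2102 and 2093 bp in the WT libraries. The folds there were low, at 2.29 and 2.15 in the swc4Δ libraries, against 2.37 and 2.24 in the WT libraries. A separate wide region covered the PMA1 promoter, 482973 to 484583, with peaks of 1658 and 1436 bp in the swc4Δ libraries, against 1571 and 1525 bp in the WT libraries. The promoter region's groups overlapped, and the gene-body region was narrower in both swc4Δ libraries. Others without a start codon lay over FAS2, a fatty acid synthase subunit, over GSY2 and HSP60, and over KTI12 and the promoter of HAP4, the activating subunit of the respiratory gene activator.

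Wide regions were also read for small RNA genes, since the title of the series names tRNA genes, the rDNA and telomeres. A tRNA gene lay in 27 wide regions (5.87%), against 157 of the 2181 other WT regions (7.20%). A snoRNA gene lay in 11 (2.39%), against 18 others (0.825%), and an rRNA gene in 1, against 1 other. These shares are per region and not per kb. The wide regions are longer, with a median of 1125 bp against 374 bp, so no excess or lack is read from them. The gene table holds 275 tRNA, 76 snoRNA and 12 rRNA genes. Of the wide regions, 5 lay within 20 kb of a chromosome end. All 27 regions with a tRNA gene had a peak in every library, with median widths of 1171 and 847 bp in the swc4Δ libraries, against 1096 and 988 bp in the WT libraries. Of these, 3 were wider and 7 narrower in both swc4Δ libraries, and 17 overlapped. Over all 1382 merged WT regions with a peak in all 4 libraries, the background for these counts, 39.4% were wider and 10.6% narrower in both swc4Δ libraries. The strongest wide region of all was the rRNA one, over RDN5-1 on chromosome XII, 459551 to 460854. Its fold was 12.7 and 11.3 in the swc4Δ libraries, against 12.7 and 12.1 in the WT libraries, and its width 1234 and 1331 bp, against 1304 and 1256 bp. The rDNA is repeated and tRNA genes of a family share sequence. How reads with several matches were handled is not given in the sources used here.

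The gene groups differed in how often a wide region lay over their promoters. Genes of glycolysis and fermentation had one at 12 of 20 promoters (60.0%), transcription factors at 12 of 29 (41.4%), chaperones at 8 of 20 (40.0%) and genes of the cell wall and plasma membrane at 12 of 30 (40.0%). For core histones it was 3 of 10 (30.0%), for translation factors 4 of 20 (20.0%), for cyclins and cell cycle regulators 4 of 20 (20.0%) and for cytosolic ribosomal proteins 24 of 137 (17.5%). The share over all protein-coding promoters was the 14.1% given above. These are counts over lists chosen for this purpose, with no test. Several of the genes have close copies elsewhere in the genome (TDH1 to TDH3, ENO1 and ENO2, SSA1 and SSA2, the paired ribosomal protein genes), and their values are uncertain to the extent that reads were shared between copies.

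Some glycolytic genes lay in peaks along most of their coding sequence, and others did not. GLK1 and GPM1 lay wholly inside peaks (100%) in each of the 4 libraries. ADH1, the main alcohol dehydrogenase, was covered to 94.2 and 92.5% in the swc4Δ libraries, against 90.6 and 95.8% in the WT libraries. In both swc4Δ libraries 5 of the 20 genes were covered to 90% or more, against 7 in both WT libraries. The genes that made the difference, named after their values were seen, were ENO1, an enolase, and TDH1, a glyceraldehyde-3-phosphate dehydrogenase. ENO1 was covered to 33.0 and 26.0% in the swc4Δ libraries, against 95.1 and 100% in the WT libraries. TDH1 was covered to 34.7 and 61.1% in the swc4Δ libraries, against 91.3 and 95.8% in the WT libraries. Both genes lay below the WT range in each swc4Δ library. Other enzymes of the pathway carried no such cover: PFK1, HXK2 and ADH2 had none of their coding sequence in a peak in any of the 4 libraries.

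**Figure D2:**
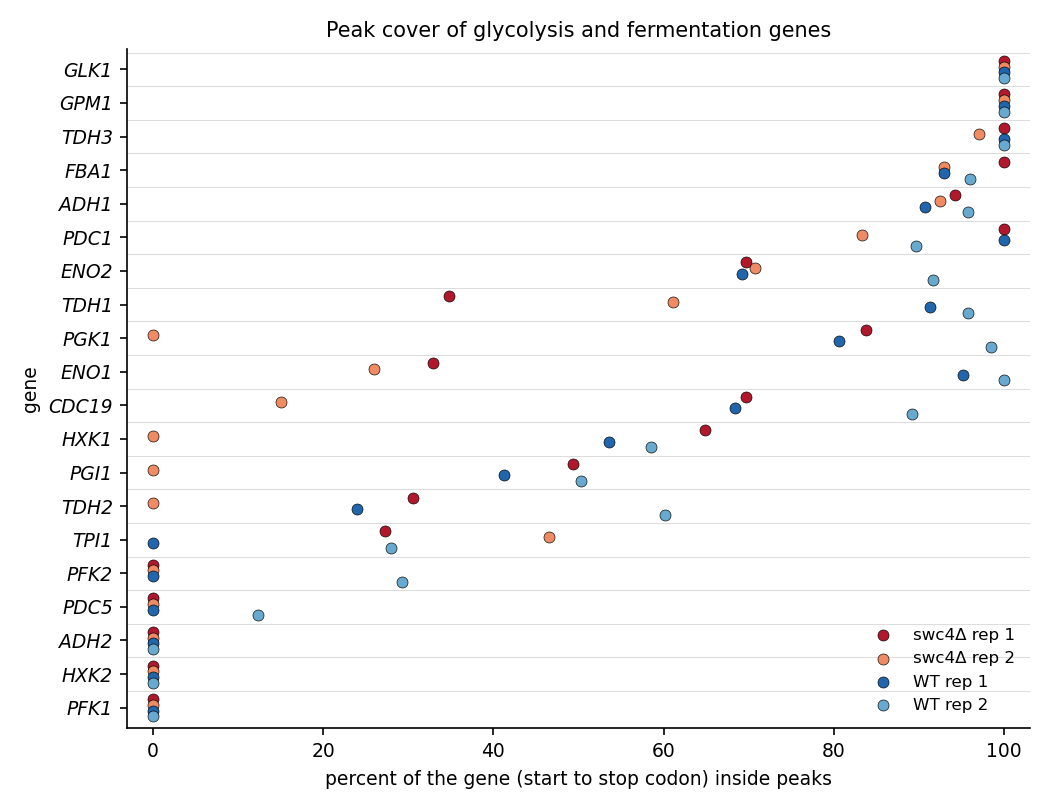
Percent of the coding sequence, from start to stop codon, that lies inside peaks in each library (points) for the 20 glycolysis and fermentation genes. GLK1 and GPM1 sit at 100% in all 4 libraries, PFK1, HXK2 and ADH2 at 0, and ENO1 and TDH1 are lower in both swc4Δ libraries than in both WT libraries.

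The widest regions at the promoters of this group were those of GPM1 and GLK1, given above, followed by PDC1 and ADH1. The ADH1 region, chromosome XV, 159592 to 162162, had peaks of 2798 and 2596 bp in the swc4Δ libraries, against 2367 and 2571 bp in the WT libraries. The groups were separate by the small gap between 2596 bp in swc4Δ replicate 2 and 2571 bp in WT replicate 2. Of the 12 glycolytic promoters in wide regions, 4 were wider and 3 narrower in both swc4Δ libraries, and 5 overlapped (background 39.4% wider and 10.6% narrower).

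Among chaperones, HSP104, the disaggregase, and HSP42, a small heat shock protein, were covered nearly whole. HSP104 was covered to 100 and 99.9% in the swc4Δ libraries, against 94.6 and 91.7% in the WT libraries. Its widest peak was 4019 and 3082 bp in the swc4Δ libraries, against 1845 and 2407 bp in the WT libraries. HSP42 was covered to 100% in each of the 4 libraries, with peaks of 2700 and 2858 bp in the swc4Δ libraries, against 2350 and 2338 bp in the WT libraries. SIS1, a J-domain co-chaperone, and SSC1, the mitochondrial Hsp70, had overlapping groups. In all, 3 of the 8 chaperone promoters in wide regions were wider in both swc4Δ libraries and none was narrower, where the background was 39.4% and 10.6%. The 3 wider ones were HSP104 on chromosome XII, HSP42 on IV and SSA4 on V. Most wide regions of IV were wider, by the counts for that chromosome.

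The cell wall group was led by HSP150, SED1, CCW14 and CCW12, all structural proteins of the wall. HSP150 was covered to 100% in each of the 4 libraries, and its region had peaks of 2875 and 2357 bp in the swc4Δ libraries, against 2718 and 2535 bp in the WT libraries. SED1, also at 100% in each library, had peaks of 2790 and 3183 bp in the swc4Δ libraries, against 2467 and 2534 bp in the WT libraries. HSP150 therefore overlapped between genotypes and SED1 was wider in both swc4Δ libraries. Of the 12 promoters of the group in wide regions, 5 were wider and 1 was narrower in both swc4Δ libraries, near the background of 39.4% and 10.6%. The 5 wider ones were SED1 on chromosome IV, CWP2 and PIR1 on XI, FTR1 on V and EXG1 on XII. Most wide regions of IV and nearly all of XI were wider, by the counts for those chromosomes.

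Of the 12 transcription factor promoters in wide regions, 5 were wider and 1 was narrower in both swc4Δ libraries, again near the background of 39.4% and 10.6%. The first 3 by WT width all lay on chromosome XI. The HAP4 region had peaks of 2957 and 1921 bp in the swc4Δ libraries, against 1912 and 1524 bp in the WT libraries. At PHD1, an activator of filamentous growth, the widths were 1888 and 2763 bp in the swc4Δ libraries, against 1317 and 1758 bp in the WT libraries. At MSN4, a general stress activator, they were 1772 and 1716 bp in the swc4Δ libraries, against 1355 and 1284 bp in the WT libraries. The fourth, MIG1 on chromosome VII, the glucose repressor, overlapped with 1366 and 1231 bp in the swc4Δ libraries, against 1324 and 1343 bp in the WT libraries. Nearly all wide regions of chromosome XI shared that direction, by the counts for that chromosome.

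Most members of the other groups overlapped between genotypes. Core histone genes entered through HTZ1, which encodes the histone variant deposited by SWR1, and through the shared HHT2 and HHF2 promoter. The HTZ1 region had peaks of 1261 and 1461 bp in the swc4Δ libraries, against 1446 and 1161 bp in the WT libraries, and the histone H3 and H4 pair had 831 and 712 bp, against 847 and 582 bp in the WT libraries. Neither was separate between genotypes. Of the 24 ribosomal protein promoters, 4 were wider and 2 narrower in both swc4Δ libraries and 18 overlapped (background 39.4% wider and 10.6% narrower). The 2 with the widest WT peaks went opposite ways: RPL36B had 3198 and 1824 bp in the swc4Δ libraries, against 1815 and 1361 bp in the WT libraries, and RPL32 had 948 and 799 bp, against 1536 and 1360 bp in the WT libraries. HYP2, which encodes translation factor eIF5A, was nearly the same width in every library, at 1456 and 1456 bp in the swc4Δ libraries, against 1457 and 1430 bp in the WT libraries. Among the cyclins, CLN3 had 1892 and 1451 bp in the swc4Δ libraries, against 1635 and 1581 bp in the WT libraries, with overlap. HCM1 and PCL1 were narrower in both swc4Δ libraries.

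The next comparison asked whether these regions stayed open, and stayed wide, without Swc4. Nearly all of them still held a peak: 443 of 460 (96.3%) had one in both swc4Δ libraries, against a background of 64.3% over all merged WT regions. A peak of 800 bp or more was present in both swc4Δ libraries in 283 (61.5%), against a background of 15.7%. The wide regions also have the stronger WT peaks, so a higher share than the background follows in part from how they were chosen. In swc4Δ replicate 1, 351 regions (76.3%) were wide, and in swc4Δ replicate 2, 307 (66.7%). All 4 libraries were wide in 210 regions (45.7%). Of the 278 regions wide in both WT libraries, 75.5% were wide in both swc4Δ libraries, and of the 182 wide in 1 WT library, 40.1%.

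Few regions lacked a peak. Only 3 regions had no peak in either swc4Δ library, and they were named after that count was seen. They lay at PET112 and NUP170 on chromosome II, at NPA3 on chromosome X and over MDH2 on chromosome XV, and their WT folds were low, at 2.54 in WT replicate 1 at the first pair and 2.46 at MDH2. In the other 14 regions the peak was missing in swc4Δ replicate 2 alone. The widest of these lay at ROQ1 and TIM17, the mitochondrial import channel subunit, on chromosome X, with 508 bp in swc4Δ replicate 1, against 1055 and 1454 bp in the WT libraries. At AGX1, alanine:glyoxylate aminotransferase, it was 311 bp in swc4Δ replicate 1, against 1343 and 285 bp in the WT libraries. At CYS3, cystathionine gamma-lyase, it was 616 bp in swc4Δ replicate 1, against 1020 and 413 bp in the WT libraries. At AGX1 and CYS3 the WT libraries themselves differed, with 1 of them under 800 bp.

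To see how far width repeats, wide peaks were also taken from 1 library at a time and read in the other 3, which were then not used in the choice. Of the 418 wide peaks of WT replicate 1, 77.5% were wide in swc4Δ replicate 1 and 67.7% in swc4Δ replicate 2, against 68.4% in WT replicate 2. Of the 334 of WT replicate 2, 83.2% and 75.1% were wide in the swc4Δ libraries, against 85.0% in WT replicate 1. The swc4Δ shares lay on either side of the WT share for the first list and below it for the second, with swc4Δ replicate 2 the lower in each. In the other direction, of the 552 wide peaks of swc4Δ replicate 1, 67.9% were wide in swc4Δ replicate 2, against 57.4% and 48.9% in the WT libraries. Of the 481 of swc4Δ replicate 2, 80.0% were wide in swc4Δ replicate 1, against 58.6% and 51.4% in the WT libraries. For both swc4Δ libraries, the WT libraries gave the lower shares. The WT libraries also hold fewer wide peaks, 418 and 334 against 552 and 481, which limits how high their shares can be. The gap is therefore not read as a difference in how far width repeats. The difference between these shares was not tested, since the libraries are few and the peaks of 1 library are not independent.

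The gap was narrower for both swc4Δ libraries when 4 chromosomes were left out. Without chromosomes IV, V, VIII and XI, 61.4% of the wide peaks of swc4Δ replicate 1 were wide in swc4Δ replicate 2, against 68.7% and 58.6% in the WT libraries. Those of swc4Δ replicate 2 were wide in swc4Δ replicate 1 in 93.4%, against 82.6% and 73.2% in the WT libraries. For the list of swc4Δ replicate 1 the other swc4Δ library then lay between the WT libraries, while for that of swc4Δ replicate 2 it was still above both.

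**Figure D3:**
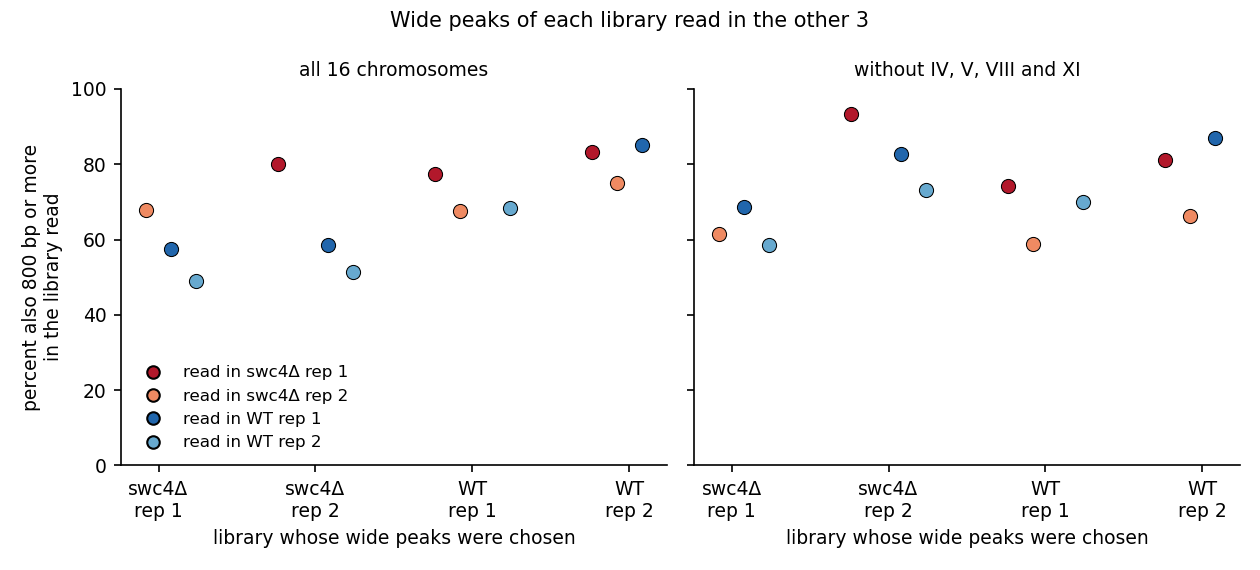
Percent of the peaks of 800 bp or more of each library (horizontal axis) that overlapped a peak of 800 bp or more in each of the other 3 libraries (coloured points), over 16 chromosomes and without IV, V, VIII and XI. On the left, wide swc4Δ peaks are wide in 67.9 and 80.0% in the other swc4Δ library. In the WT libraries it is 48.9 to 58.6%. On the right, the other swc4Δ library lies between the WT libraries for swc4Δ replicate 1. For swc4Δ replicate 2 it stays above both, by a smaller gap. The libraries read hold unlike numbers of wide peaks, which limits each share.

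The number of wide peaks per library was counted next. There were 552 and 481 in the swc4Δ libraries, against 418 and 334 in the WT libraries, or 516.5 ± 50.2 against 376 ± 59.4 (SD, n = 2 each). The groups did not overlap, but an exact permutation test of 2 against 2 libraries cannot go below a two-sided p of 0.333, which is what it gave. As a share of the list, 19.5 and 20.3% of swc4Δ peaks were wide, against 17.8 and 15.8% of WT peaks (exact permutation p = 0.333, two-sided). Off the 4 chromosomes the counts were 319 and 213 in the swc4Δ libraries, against 299 and 237 in the WT libraries, and the difference of the means was -2 peaks (266 ± 75.0 against 268 ± 43.8, SD, n = 2 each; exact permutation p = 1, two-sided). The 4 include XI, with 101 and 82 wide peaks in the swc4Δ libraries, against 26 and 23 in the WT libraries. They also include IV, with 81 and 102, against 46 and 33. Leaving these out lowers the difference by itself, so nothing is read from that p.

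Widths of the same region were compared in the 439 of 460 wide regions that had a peak in all 4 libraries, taking the widest overlapping peak of each. The median width was 1131 and 1023 bp in the swc4Δ libraries, against 1047 and 966 bp in the WT libraries. In 129 regions (29.4%) both swc4Δ libraries were wider than both WT libraries, against a background of 39.4% over all 1382 merged WT regions in all 4 libraries. In 75 regions (17.1%) both were narrower, against a background of 10.6%. The remaining regions overlapped. The balance depended on the libraries. Without WT replicate 2, 134 of 402 were wider and 148 narrower, and without swc4Δ replicate 1, 168 of 439 were wider and 160 narrower. Without swc4Δ replicate 2 the shares of 452 were 48.2% wider and 24.6% narrower, and without WT replicate 1 those of 329 were 41.6 and 30.4%. Where a WT library was left out, the regions were chosen again on the other WT library alone. The background was not recomputed for these settings. Of the 943 other WT regions, 44.1% were wider and 7.53% narrower. The WT widths that chose the regions enter this comparison, so nothing is read from the distance to the background.

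The counts differed from chromosome to chromosome. On chromosome XI, 30 of the 32 wide regions in all 4 libraries were wider in both swc4Δ libraries and none was narrower. Their median width was 2649 and 1967.5 bp in the swc4Δ libraries, against 1073.5 and 947.5 bp in the WT libraries. The WT regions of chromosome XI that were not wide did the same: 56 of 58 were wider in both swc4Δ libraries, with medians of 1262.5 and 891 bp, against 390.5 and 352 bp in the WT libraries. Fold moved with width there. Divided by each library's median over the WT regions shared by all 4 libraries, the median fold of the wide regions on XI was 1.48 and 1.31 in the swc4Δ libraries, against 1.08 and 1.00 in the WT libraries. On the same scale the other XI regions had 1.11 and 1.08 in the swc4Δ libraries, against 0.864 and 0.864 in the WT libraries.

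Chromosome IV had 35 of 53 wide regions (66.0%) wider in both swc4Δ libraries and 3 narrower. Of the other WT regions of IV, 108 of 141 (76.6%) were wider and 2 narrower. The medians of the wide regions were 1197 and 1354 bp in the swc4Δ libraries, against 1005 and 865 bp in the WT libraries. Over chromosomes IV, V, VIII and XI together, 82 of 137 wide regions (59.9%) were wider and 4 (2.92%) narrower in both swc4Δ libraries, against 216 (72.0%) and 5 (1.67%) of the 300 other WT regions there. Chromosomes V and VIII had 11 of 32 and 6 of 20 wider, so most of the 82 lay on XI and IV. Chromosome XII, kept among the other 12, had 15 of 44 wider, a share like that of V. No rule for setting these 4 apart is given here, so results without them depend on that choice. With XI and IV set apart, a lower share of wider regions elsewhere follows in part from the split. On the other 12 chromosomes, 47 of 302 wide regions (15.6%) were wider and 71 (23.5%) narrower. Of all 945 WT regions there, 26.1% were wider and 14.5% narrower. The medians of those wide regions were 1054 and 880 bp in the swc4Δ libraries, against 1052 and 967.5 bp in the WT libraries. Only swc4Δ replicate 2 thus lay below the WT libraries. A single background depth for the whole genome was read from the folds of each list, and the part of per-chromosome read depth in these widths was not tested.

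**Figure D4:**
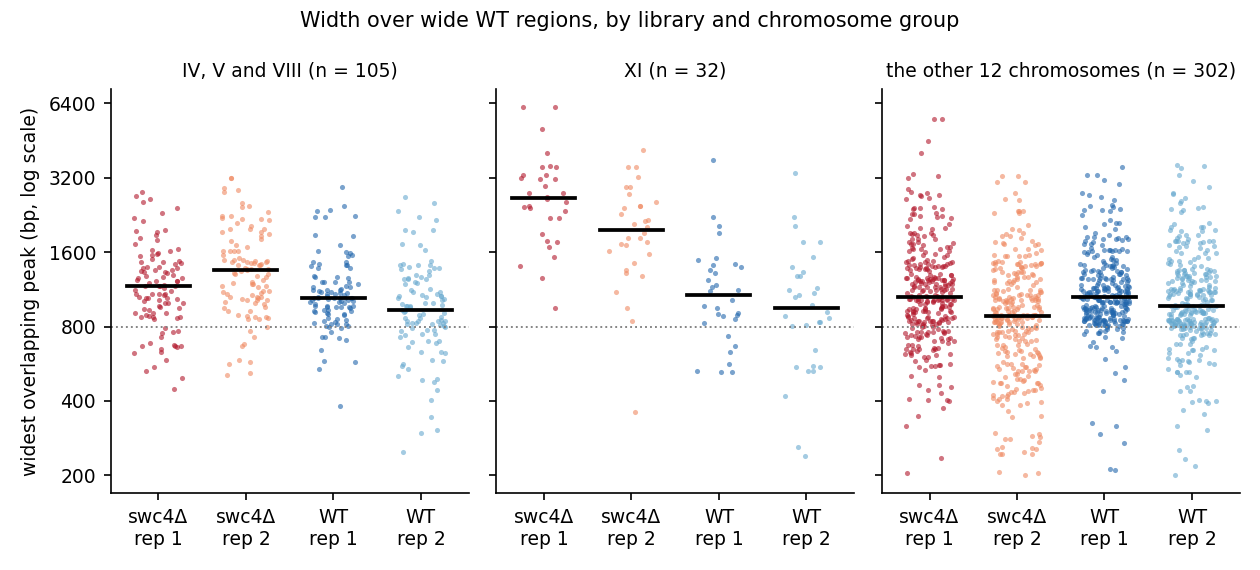
Width of the widest overlapping peak (bp, log scale) in each library for the wide WT regions with a peak in all 4 libraries, by chromosome group, with medians as bars and the 800 bp threshold dotted. On chromosome XI both swc4Δ medians (2649 and 1967.5 bp) stand above both WT medians (1073.5 and 947.5 bp), and on the other 12 chromosomes swc4Δ replicate 2 has the lowest median, 880 bp.

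Among those 12, the chromosomes with the highest counts of narrower regions were VII, XIV and X. On chromosome VII, 14 of 44 wide regions were narrower in both swc4Δ libraries and 4 wider. On XIV it was 13 of 26 and 2 wider, and on X 9 of 28 and none wider. As a share of their regions, III (6 of 15), I (4 of 11) and II (6 of 17) stood above VII and X. Among the other WT regions, 8 of 82 were narrower and 29 wider on VII, 8 of 57 and 9 on XIV, and 11 of 56 and 18 on X. The WT widths that chose the wide regions enter these counts too. Chromosome XII, which holds the rDNA, had 15 of 44 wide regions wider and 2 narrower, against 36 and 1 of the 81 other WT regions.

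**Figure D5:**
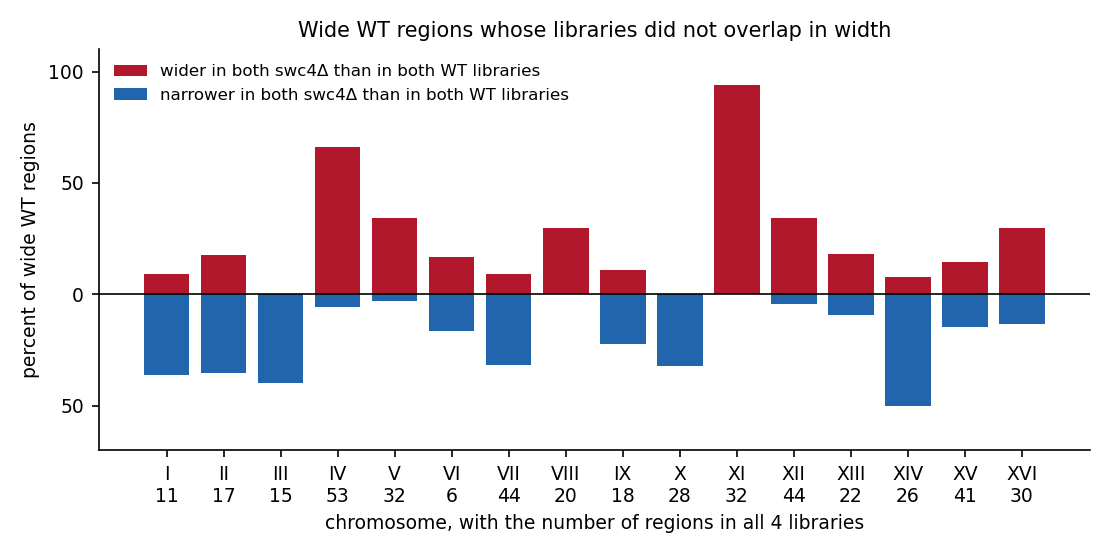
Percent of the wide WT regions with a peak in all 4 libraries, by chromosome, that were wider (bars up) or narrower (bars down) in both swc4Δ libraries than in both WT libraries, with the number of regions under each chromosome. Chromosome XI has 30 of 32 wider and none narrower, and III and X have none wider.

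The largest differences towards a wider swc4Δ peak lay beside the rDNA and on chromosome XI. On chromosome XII a pair of wide WT regions, 447964 to 448993 at RNH203, a ribonuclease H2 subunit, with a tRNA gene, and 449820 to 451169, lay under a single peak in each swc4Δ library. That peak spanned 5539 and 3266 bp in the swc4Δ libraries, against 666 and 1030 bp in the WT libraries at the first region and 1110 and 1278 bp at the second. The fold at the first was 5.00 and 3.81 in the swc4Δ libraries, against 2.25 and 2.40 in the WT libraries. These 2 regions count as members each, but their swc4Δ values are the same peaks.

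Other large differences in this direction were on chromosome XI. Over PTK1, a kinase acting on polyamine transport, 67787 to 70019, the widths were 6166 and 3215 bp in the swc4Δ libraries, against 2213 and 2218 bp in the WT libraries. The regions at YKR041W and over UTH1, 518195 to 519337 and 519641 to 520622, shared peaks of 3539 and 3548 bp in the swc4Δ libraries, against 1118 and 1091 bp at YKR041W and 562 and 982 bp at UTH1 in the WT libraries. Of the 460 regions, 27 shared their widest peak with another wide region in 1 or both swc4Δ libraries, 11 of them on chromosome XI. Peaks that joined a wide region to a WT region without a wide peak were not counted. Without those 27, 27.3% were wider and 18.1% narrower in both swc4Δ libraries, a count added after seeing the data.

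Of the 6 regions with the largest differences towards a narrower swc4Δ peak, all but that at TRM112 and FPK1 held several peaks in both swc4Δ libraries. The ILV6 region of chromosome III, 102863 to 107436, is the longest merged region. It holds the starts of GBP2, an mRNA export factor, SGF29, a SAGA subunit, ILV6, the regulatory subunit of acetolactate synthase, STP22, an ESCRT-I subunit, and VMA9, a vacuolar ATPase subunit. Its widest peak was 684 and 428 bp in the swc4Δ libraries, against 2095 and 3558 bp in the WT libraries. It held 3 peaks in each swc4Δ library, against 2 and 1 in the WT libraries. Its fold was 3.39 and 2.49 in the swc4Δ libraries, against 3.39 and 3.28 in the WT libraries. Divided by each library's median over the shared WT regions, that fold was 0.887 and 0.846 in the swc4Δ libraries, against 1.14 and 1.24 in the WT libraries, so it was lower in both swc4Δ libraries on this scale only.

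BDH2 on chromosome I, a putative butanediol dehydrogenase, followed the same form, with 1206 and 595 bp in the swc4Δ libraries, against 1878 and 2638 bp in the WT libraries. It held 3 peaks in each swc4Δ library, against 2 and 1 in the WT libraries. RSM7, a mitochondrial ribosomal protein, YJR115W and TDA4 on chromosome X had 1711 and 1769 bp in the swc4Δ libraries, against 3280 and 2395 bp in the WT libraries. TRM112, a methyltransferase activator, and FPK1, a kinase of lipid flippases, on chromosome XIV had 457 and 613 bp in the swc4Δ libraries, against 1202 and 1863 bp in the WT libraries. In each of these the swc4Δ libraries were separate from the WT libraries, and none lay on chromosomes IV, V, VIII or XI.

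The number of regions split into several peaks differed between replicates as well as between genotypes. Of the 460 regions, 56 and 72 held 2 or more peaks in the swc4Δ libraries, against 40 and 75 in the WT libraries. Peaks covered 83.4 and 76.2% of the length of the wide regions in the swc4Δ libraries, against 92.0 and 85.0% in the WT libraries, and the WT lists drew the outlines. On chromosome XI the cover was 99.5 and 96.3% in the swc4Δ libraries, against 91.1 and 81.3% in the WT libraries. On the 12 chromosomes other than IV, V, VIII and XI it was 80.6 and 68.8% in the swc4Δ libraries, against 92.1 and 85.1% in the WT libraries.

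The folds of wide regions followed the whole list. The median fold was 4.89 and 3.77 in the swc4Δ libraries, against 3.60 and 3.32 in the WT libraries. As deposited, fold was higher in both swc4Δ libraries in 219 of 439 regions (49.9%, background 46.5%) and lower in 18 (4.10%, background 2.82%). Divided by each library's median over the shared WT regions, it was higher in 112 (25.5%, background 24.7%) and lower in 128 (29.2%, background 30.2%). On either scale the wide regions stood near the background. The split between higher and lower depended on the scale, so no direction is given for fold. Off the 4 chromosomes, 46 of 302 (15.2%) were higher and 114 (37.7%) lower with the median taken over all chromosomes, as were 15.2 and 38.8% of all 945 WT regions there. Of the wide regions, 25.8% were higher and 25.5% lower with the median taken over those 12 chromosomes alone. The share of all WT regions there is not given on that scale, so nothing particular to wide regions is read from these percentages.

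After the rRNA region, the strongest wide region in WT lay over PCT1, YCH1 and ADE3 on chromosome VII. It had folds of 7.61 and 5.89 in the swc4Δ libraries, against 6.06 and 5.56 in the WT libraries. PCT1 encodes a rate-determining enzyme of phosphatidylcholine synthesis and ADE3 a folate enzyme of purine synthesis. Its width was 1579 and 1390 bp in the swc4Δ libraries, against 1802 and 2024 bp in the WT libraries. At RAX1 on chromosome XV, a protein of bud site selection, width was nearly even, at 988 and 963 bp in the swc4Δ libraries, against 963 and 916 bp in the WT libraries. The PCT1 peak was narrower in both swc4Δ libraries, and its deposited fold overlapped between genotypes. Its relative fold was lower in both swc4Δ libraries, at 1.99 and 2.00, against 2.04 and 2.11 in the WT libraries.

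Long genes lying mostly inside peaks were counted in each library without regard to the wide WT regions. Of the 3592 coding genes of 1000 bp or more, 125 and 110 were covered to 50% or more in the swc4Δ libraries, against 97 and 102 in the WT libraries. To 90% or more it was 30 and 24 in the swc4Δ libraries, against 25 and 24 in the WT libraries, and 12 genes reached that in all 4. These were GLK1, SED1, HSP42, HSP150, HSP104, FBA1, ADH1, SCS3, NNR2, RRN5, GTO3 and PUT4. PIR1, a cell wall protein gene on chromosome XI named after its values were seen, was covered to 100 and 92.5% in the swc4Δ libraries, against 22.8 and 0% in the WT libraries.

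The authors' own list per genotype was read as well. Of the 460 wide WT regions, 448 overlapped a region of the authors' swc4Δ list, with a median of 990 bp for the widest, and 400 overlapped one of the authors' WT list, with a median of 650 bp. The lists differ in length, at 2602 regions for swc4Δ and 1002 for WT, so the widths are set side by side and not compared. How those lists were made is not given in the sources used here.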

How the data were processed

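The 4 libraries were grouped by genotype from their own labels, 2 swc4Δ and 2 WT. Per the submitters' processing notes, which give no role or order, the tools were deepTools 1.5.11, SAMtools 1.4, Picard 2.18.7, Bowtie2 2.3.1 and Trim Galore 0.5.0, and the build was sacCer3. The peak caller and any Tn5 shift of reads are not given in the sources used here.

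Each deposited list holds, per peak, the authors' fold enrichment (a ratio over background) and the deposited −log10 p and −log10 q. In each list 100% of the deposited folds were whole multiples of a fixed step, to within 0.01 step. The background depth was estimated from the size of that step, on the assumption that 1 was added to both signal and background. The series also has 1 list per genotype whose deposited score per region was not used; how these lists were made is not stated in the labels.

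Peaks were merged where they shared 1 bp, and for each region the widest overlapping peak and the highest fold were taken in each library. Relative fold is that fold over the library's median in merged WT regions with a peak in all 4 libraries. A region was called wider, narrower, higher or lower where both swc4Δ values lay on 1 side of both WT values; this is a count, not a test. Genes came from the RefSeq table of R64 (6431 nuclear genes, 6002 protein-coding), the assembly sacCer3 names; strand was lacking for 1 gene. The largest coordinate of a chromosome in that table or the lists stood for its end. Library counts were compared by the exact permutation test, two-sided. Replicate numbers were not used to pair the libraries, except in the replicate block among the alternatives. Code was tested on simulated peak lists; Python 3.11.15, numpy 2.4.6, pandas 2.3.3 and statsmodels 0.14.6 were used.

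The regions, the gene lists, the tests and the rule by which regions are named were all chosen with earlier results of these data known. By that rule, the text names the 10 regions with the widest WT peak, up to 8 each with 3 or more start codons, with no start codon, with a small RNA gene or with a missing swc4Δ peak. It also names the 6 largest differences of width each way, the 3 regions on each side of the threshold, the 6 highest WT folds and up to 4 genes per list. A region that this rule names is not reported here. FLO8 of the transcription factor list is not a protein-coding entry in the table. Alternatives were other width thresholds, a −log10 q of at least 5, equal list lengths, each library left out, 4 or 1 chromosomes left out, a 50% overlap, a 300 bp promoter and a replicate block. A planned search for promoter motifs was not run, as no promoter sequences were used here.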

Additional observations from a re-analysis of the deposited data

How the results depend on the processing

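Of 119 recomputed values, 82 stayed within the limits set for the same result, 36 moved past them and 1 turned round. For the differences in number and share of wide peaks, the limit was an unchanged sign alone, whatever their size. For percents of regions it was the 95% interval of the main value, and for the number of regions a fixed ratio. With 600 bp as the width threshold there were 793 regions, of which 92.3% had a peak in both swc4Δ libraries, 63.3% held a start codon and 90.2% touched a promoter. With 1000 bp there were 302 regions, 56.0% wide in both swc4Δ libraries and 77.5% with a start codon. At a −log10 q of at least 5, 90.4% had a peak in both swc4Δ libraries and 21.0% had a higher relative fold in both. There the difference in the share of wide peaks fell to 1.68 percentage points, and the genotypes overlapped. With equal list lengths, 93.5% had a peak in both swc4Δ libraries. With promoters of 300 bp, 91.3% touched one. Without chromosomes IV, V, VIII and XI the difference in wide peaks per library was -2, 52.5% of regions were wide in both swc4Δ libraries, 15.6% were wider and 23.5% narrower. Without chromosome XI alone, an alternative added after seeing the data, 24.3% were wider, and the difference in wide peaks was 73.5. With deposited folds, not scaled, also added, 49.9% were higher and 4.10% lower in both. For these settings the cause was not tested.

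Leaving out each library in turn gave ranges. The difference in wide peaks ran from 98.5 to 182.5, the difference in share from 2.17 to 4.13 percentage points and the number of regions from 334 to 460. The percent with a peak in the swc4Δ libraries left ran from 96.2 to 99.3, wide there from 63.2 to 76.3, wider from 33.3 to 48.2, narrower from 24.6 to 36.8, higher in fold from 28.6 to 40.3 and lower from 36.3 to 47.4. With 3 libraries fewer comparisons have to hold, so these counts are higher by construction.

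Region by region, same-numbered libraries did not deviate together, with correlations of 0.0726 for width and 0.0132 for fold over 1382 regions and only 2 pairs. These correlations do not cover whole-library shifts. Replicate 1 had more wide peaks than replicate 2 in both genotypes, 552 against 481 in swc4Δ and 418 against 334 in WT. Whether same-numbered libraries were handled together is thus not settled. With a replicate block the difference in wide peaks was 140.5 (134 and 147 within the pairs; exact sign-flip p = 0.5) and the difference in share 3.15 percentage points. With 2 libraries per genotype no permutation test of a single value could go below p = 0.333. The estimated background depth was 22.6 to 25.5, and what it allowed to be called was not tested.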
